A study of Mus musculus with 6 samples.

Results

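Suppressors of cytokine signalling (SOCS), signal transducers and activators of transcription (STAT) and the Janus kinases (JAK) were examined in mouse hippocampus after stroke. The genes were taken by name from the deposited table of gene read counts: Socs1, Socs2, Socs3, Cish, Stat3, Stat5a, Stat6, Jak1, Jak2 and Jak3. Of these 10 genes, 8 were found among the 41386 genes of the table, and Socs2 and Stat5a were not analysed here. All 8 passed the filter on low counts and were among the 18569 genes tested. The study set hippocampi taken after cerebral ischemia-reperfusion (I/R) against sham hippocampi. In the I/R group (IR24, n = 3 libraries) the middle cerebral artery was occluded for 1.5 h (MCAO) and the brain was reperfused for 24 h. In the sham group (n = 3 libraries) the vessels were exposed but, per the study's methods, no filament was placed. All mice were C57BL/6 by the labels (C57BL/6J by the methods), aged 56 days and, per the methods, male, with no genetic modification named. Hippocampi of the operated side were pooled within a library, so the spread between libraries is that between pools and not between single mice.

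Most cytokine receptors have no kinase of their own and carry JAKs on their intracellular tails. When a cytokine joins the receptor chains, the JAKs phosphorylate the receptor and the STATs that dock on it, and paired STATs enter the nucleus and bind DNA. SOCS proteins and CIS, the product of Cish, are made in response to STATs and switch the same receptors off, by blocking the JAK, by covering the docking site or by tagging the complex for degradation. In the injured brain the pathway is best known for STAT3 in reactive astrocytes and for STAT6 in microglia and macrophages.

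STAT dimers bind sites of the form TTCNNNGAA, which reads alike on both strands, and STAT6 also binds the form with 1 more base between the arms, TTCNNNNGAA. These letters were searched in the RefSeq promoter set (GRCm38.p6, 250 bases before to 50 bases after each start), which held 9 of the 10 genes. Only Socs3 and Cish of these 9 held TTCNNNGAA, against 8.3% of all 32851 promoters, and none held TTCNNNNGAA, against 6.95%. The sequence before the Socs3 start and the bases around the Cish start are printed because these 2 windows carry the matches, shown in capitals, 5′ to 3′ on the strand of the gene. The Socs3 match begins 154 bases before the start. The 2 Cish matches lie 1 after the other from the first transcribed base on. A match describes letters, and binding was not measured here.
Socs3 promoter, chr11:117969367-117969616, minus strand: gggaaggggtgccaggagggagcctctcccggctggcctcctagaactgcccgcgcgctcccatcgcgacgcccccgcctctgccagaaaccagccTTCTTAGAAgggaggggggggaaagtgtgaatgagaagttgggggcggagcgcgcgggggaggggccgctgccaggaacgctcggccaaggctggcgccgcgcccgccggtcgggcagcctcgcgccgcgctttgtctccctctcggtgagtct
Cish start, chr9:107296654-107296683, plus strand: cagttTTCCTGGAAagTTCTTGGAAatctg

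Library totals ran from 37493042 to 44788547 read counts. Levels are given as CPM, the read count relative to the library size scaled by edgeR's TMM factors, and 3 counts, taken as the floor of detection, equalled 0.0659 to 0.0872 CPM. Markers of dentate granule neurons were present in every library, with a summed level of 510 to 557 CPM in sham and 138 to 274 CPM in I/R. A set of choroid plexus genes, which mark a tissue that lies within the ventricle beside the hippocampus, summed to 1616, 3641 and 36.8 CPM in I/R replicates 1 to 3 and to 39.7, 2713 and 4481 CPM in sham replicates 1 to 3. I/R replicate 3 and sham replicate 1 thus stood apart from the other 4 libraries. In bulk tissue, fewer cells of a type and less RNA per cell cannot be told apart.

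Of the 8 genes, 6 rose after I/R, namely Socs1, Socs3, Stat3, Stat6, Jak2 and Jak3. None fell, and Cish and Jak1 did not pass the test. A gene was called where the Benjamini-Hochberg adjusted p of edgeR's quasi-likelihood test over all tested genes was below 0.05 and the fold change exceeded 1.2. By this rule 41.8% of all tested genes were called, 21.8% as higher and 19.9% as lower in I/R. The median log2 fold change of the 8 genes was 1.10, beside 0.03 over all genes tested. Of the called genes, 4 (Socs1, Socs3, Stat3 and Jak3) had a log2 fold change above 1, beside 10.2% of all tested genes. In all 8 genes the I/R and sham ranges of CPM were separate, 7 with I/R above and Jak1 with I/R below. Over all tested genes 57.4% did not overlap in either direction and 29.3% were without overlap and higher in I/R. By the deposited FPKM the Jak1 ranges overlapped, at 167.5 to 183.4 in I/R and 162.5 to 168.3 in sham. With 3 libraries per group an exact permutation test cannot give a p below 0.1, and each of the 8 genes gave that smallest value (two-sided). These p-values compare pooled libraries and not single mice.

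Socs3 encodes the inhibitor that binds gp130, the shared receptor chain of the IL-6 family, and blocks the JAKs on it. The gene lies at chr11:117211260-117215228 on the minus strand (MGP_BALBcJ_G0019402), in the BALB/cJ strain coordinates that the table gives for all genes. Its read counts were 155, 128 and 63 in sham and 7021, 3719 and 3084 in I/R, or 3.97, 3.15 and 1.83 CPM against 154, 93.0 and 77.1 CPM. Every I/R library lay far above every sham library, and I/R replicate 1 was the highest. The mean rose from 2.98 ± 1.08 to 108 ± 40.7 CPM (SD, n = 3 each). The log2 fold change was 5.17 (SE 0.361, adjusted p = 0.000216 by edgeR), a fold of 36.0 with a 95% confidence interval of 20.2 to 64.2. Among all tested genes, 121 had a larger log2 fold change. Leaving out 1 library at a time gave 4.82 to 5.42, the lowest without I/R replicate 1.

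Socs1 (chr16:7324283-7326011, minus strand), the inhibitor best known for limiting interferon signalling, was a rare transcript. Its counts were 31, 26 and 39 in sham and 96, 99 and 53 in I/R, which equalled 0.794, 0.640 and 1.13 CPM against 2.11, 2.48 and 1.33 CPM. The groups did not overlap, but the lowest I/R library lay close to the highest sham library. The log2 fold change was 1.21 (SE 0.354, adjusted p = 0.0271 by edgeR), a fold of 2.31 (95% confidence interval 1.31 to 4.07). The call was lost without I/R replicate 2 (adjusted p = 0.0976), sham replicate 1 (0.0848) or sham replicate 2 (0.0962), and with the replicate number as a block (0.0696).

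Cish (chr9:104860896-104867627, plus strand) encodes CIS, which covers the STAT5 docking site of cytokine receptors. It had 43, 104 and 101 counts in sham and 225, 187 and 120 in I/R, or 1.10, 2.56 and 2.94 CPM against 4.94, 4.68 and 3.001 CPM. The highest sham and the lowest I/R library were nearly level. The log2 fold change of 0.94 (SE 0.375) did not pass the test (adjusted p = 0.078 by edgeR), and the 95% confidence interval of the fold ran from 1.05 to 3.49. In each group the lowest Cish level was in the library that was low in choroid plexus genes. With the mean log2 level of those genes as a covariate the log2 fold change was 1.14 (adjusted p = 0.00723 by edgeR), and without both of these libraries it was 0.80 (adjusted p = 0.0677). The plot of Cish against the choroid plexus genes shows this for the lowest library of each group only. I/R replicate 2 had more choroid plexus RNA than replicate 1 (3641 against 1616 CPM) but less Cish (4.68 against 4.94 CPM).

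**Figure D1:**
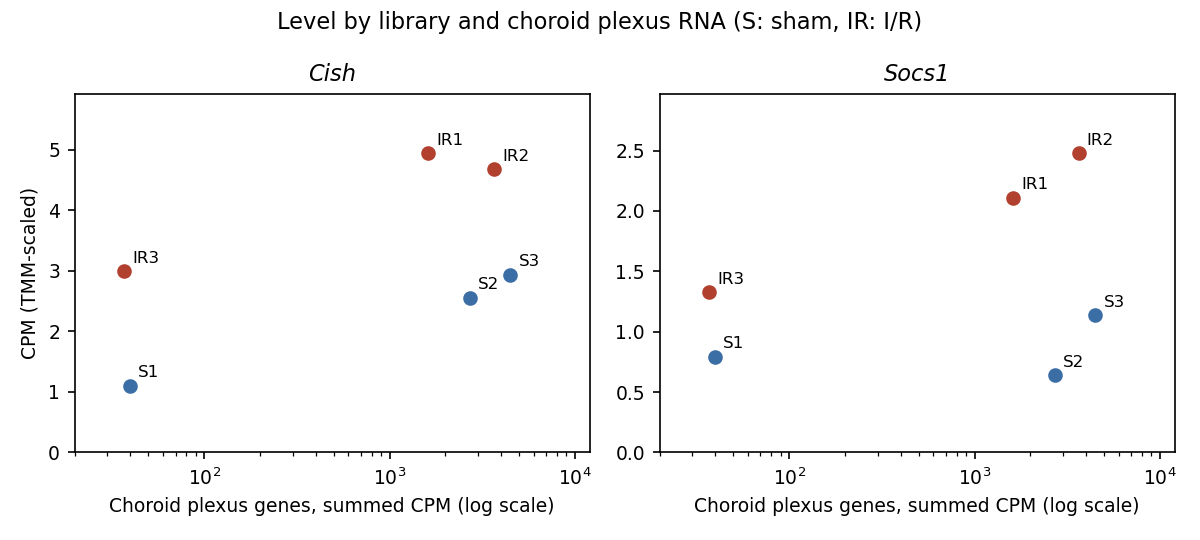
TMM-scaled CPM of Cish (left) and Socs1 (right) in each library against the summed CPM of the choroid plexus genes (horizontal log axis), with I/R libraries in red and sham libraries in blue. I/R replicate 3 (36.8 CPM of choroid plexus genes) and sham replicate 1 (39.7 CPM) lie at the left and have the lowest Cish level of their groups, and for Socs1 this holds in I/R but not in sham.

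**Figure D2:**
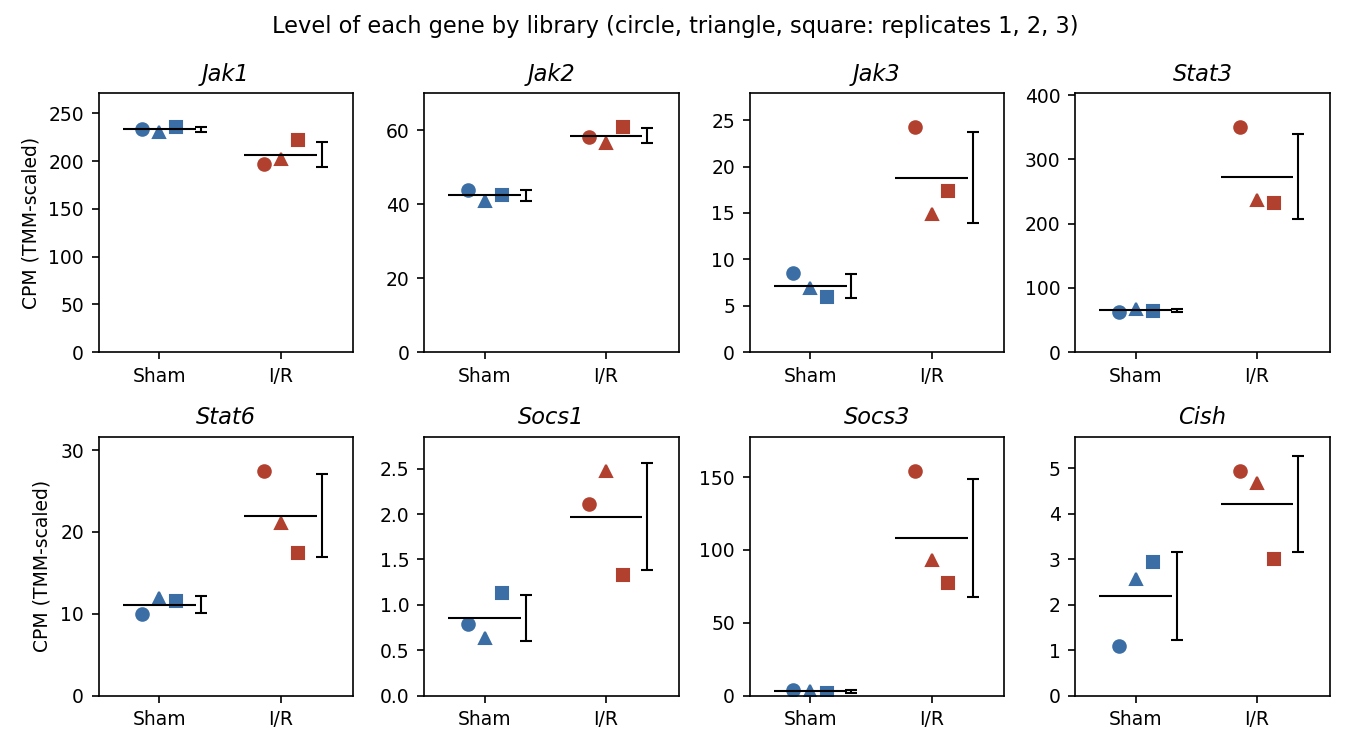
TMM-scaled CPM of the 8 genes in each of the 3 sham and 3 I/R libraries, on linear axes that start at 0. Points are libraries, the horizontal line is the group mean and the error bar is ± 1 SD (n = 3). Socs3 rose from a mean of 2.98 to 108 CPM, whereas Jak1 stayed between 197 and 236 CPM in all 6 libraries.

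Stat3 (chr11:99827722-99881630, minus strand) transduces IL-6 family signals and drives the acute phase response. Its counts were 2449, 2744 and 2219 in sham and 15933, 9481 and 9296 in I/R, or 62.7, 67.5 and 64.5 CPM against 350, 237 and 233 CPM. The sham libraries were nearly level (coefficient of variation 3.73%) and the I/R libraries spread more (24.4%), with replicate 1 the highest. The log2 fold change was 2.07 (SE 0.167, adjusted p = 0.000296 by edgeR), a fold of 4.21 (95% confidence interval 3.22 to 5.50). Without I/R replicate 1 it was 1.85, the lowest value with 1 library left out.

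Stat6 (chr10:126415177-126434182, plus strand) transduces IL-4 and IL-13 signals. It had 388, 483 and 397 counts in sham and 1251, 843 and 697 in I/R, or 9.94, 11.9 and 11.5 CPM against 27.5, 21.1 and 17.4 CPM. All I/R libraries exceeded all sham libraries, and replicate 1 was again the highest. I/R stood above sham by a log2 fold change of 0.98 (SE 0.178, adjusted p = 0.00394 by edgeR), a fold of 1.98 (95% confidence interval 1.49 to 2.63). Stat6 overlaps Nab2 on the opposite strand by 40 bases, and whether the counting used strand is not given in the sources used here.

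Jak1 (chr4:98098722-98212261, minus strand) serves most cytokine receptors, including those built on gp130, on the common gamma chain and on the interferon receptors. Its counts of 9131, 9355 and 8107 in sham and 8949, 8079 and 8881 in I/R equalled 234, 230 and 236 CPM against 197, 202 and 222 CPM. The I/R libraries lay slightly below sham, with a log2 fold change of -0.17 (SE 0.0903) that did not pass the test (adjusted p = 0.162 by edgeR). The 95% confidence interval of the fold was 0.768 to 1.03. The sign turned (0.0814) where counts were scaled by library size only.

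Jak2 (chr19:26351185-26412729, plus strand), the kinase of the gp130, erythropoietin, growth hormone and interferon-gamma receptors, rose by a small and even amount. Its counts were 1718, 1665 and 1460 in sham and 2656, 2264 and 2434 in I/R, or 44.0, 41.0 and 42.4 CPM against 58.4, 56.6 and 60.9 CPM. The 2 groups were well apart, since the coefficients of variation were 3.57% in sham and 3.63% in I/R. Its log2 fold change was 0.46 (SE 0.0799, adjusted p = 0.00325 by edgeR), a fold of 1.38 (95% confidence interval 1.22 to 1.57).

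Jak3 (chr8:69334473-69352950, plus strand) is the blood cell kinase that pairs with the common gamma chain. It had 334, 280 and 204 counts in sham and 1103, 594 and 694 in I/R, or 8.56, 6.89 and 5.93 CPM against 24.2, 14.9 and 17.4 CPM. The groups did not overlap and I/R replicate 1 was the highest. Jak3 had a log2 fold change of 1.40 (SE 0.217, adjusted p = 0.00223 by edgeR), a fold of 2.64 (95% confidence interval 1.86 to 3.74). Jak3 overlaps Insl3 on the same strand by 1363 bases, and 6.93% of its 50-base stretches recur in other genes of the reference annotation, so that part of its reads could be split. Insl3 itself had 33 counts over all 6 libraries.

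The other listed members of the 3 families moved less than Socs3 or Stat3, and in both directions. Of 8 listed, 7 were found and 6 tested, of which 1 rose, 2 fell and 3 did not pass the test. Over all tested genes 21.8% were called higher and 19.9% lower, so these counts are a description only. Socs4 rose, from 771, 828 and 756 counts in sham to 1497, 1204 and 1073 in I/R (log2 fold change 0.53, SE 0.109, adjusted p = 0.00636 by edgeR). Socs5 and Socs7, which had the highest levels per kb in sham of the SOCS genes found, fell. Socs5 went from 5461, 6025 and 4878 counts to 4555, 4211 and 4404 (-0.45, SE 0.0797, adjusted p = 0.00374). This call was lost in 4 of 20 alternative settings, among them scaling by library size only (-0.19, adjusted p = 0.0584). Socs7 went from 7809, 8370 and 7015 counts to 5695, 6016 and 5538 (-0.56, SE 0.095, adjusted p = 0.00313). Tyk2, the remaining JAK, had a log2 fold change of -0.09 (adjusted p = 0.629), and this sign turned with scaling by library size only (0.17). Stat2 (0.44, adjusted p = 0.0945) and Stat5b (0.34, adjusted p = 0.122) did not pass the test, and Stat4 was too low to test.

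**Figure D3:**
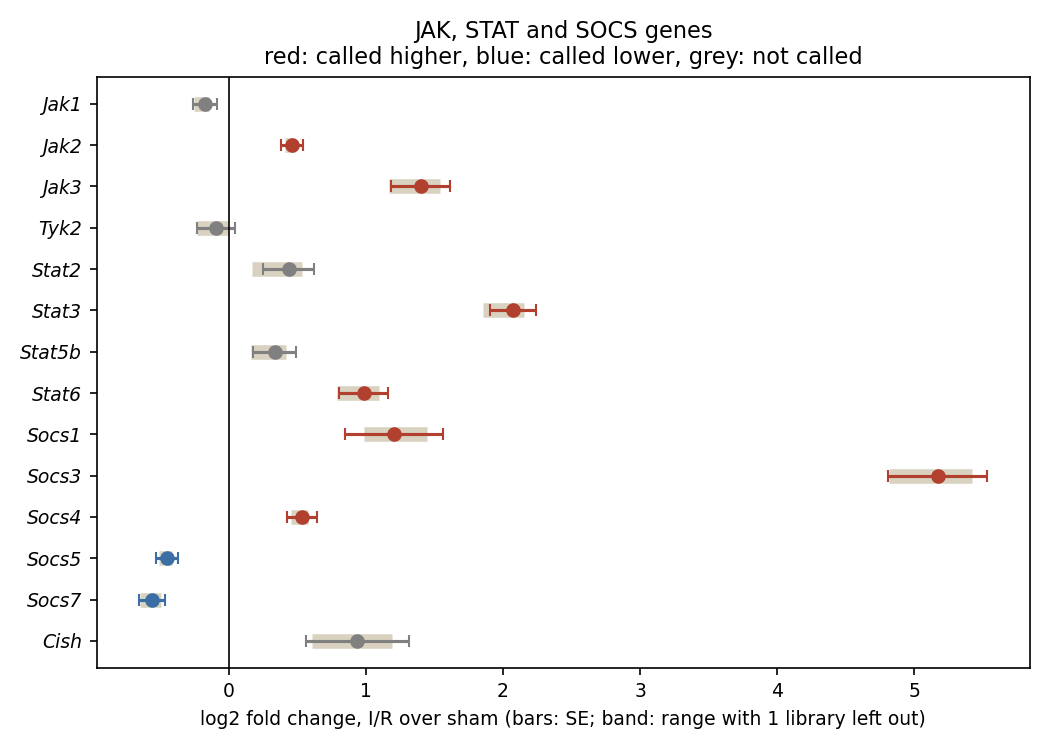
Log2 fold change, I/R over sham, of each tested JAK, STAT and SOCS gene, with ± 1 SE as the error bar and the range with 1 library left out as a band, red where called higher, blue where called lower and grey where not called. Socs3 (5.17) and Stat3 (2.07) lie furthest right, and Socs7 (-0.56) furthest left.

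Shares of counts within a family, which are not adjusted for gene length, do not depend on how libraries are scaled. Stat3 took 54.5, 53.0 and 53.2% of the summed counts of Stat2, Stat3, Stat4, Stat5b and Stat6 in sham and 77.2, 76.5 and 77.6% in I/R. The libraries within each group were nearly level, and the 2 groups were far apart. Stat6 rose in CPM, but its share of these counts was lower in I/R, 6.23% against 9.16%. Socs3 went from 1.09, 0.827 and 0.490% of the summed counts of Socs1, Socs3, Socs4, Socs5, Socs7 and Cish to 36.8, 24.1 and 21.6%. Family genes that were not found are left out of these sums. The share of Socs7 was 54.5% in sham and 35.9% in I/R, and that of Socs5 38.4% and 27.3%. Within the JAKs, Jak1 held 76.3, 76.9 and 77.7% in sham and 65.2, 69.8 and 69.6% in I/R, while Jak2 held 14.01% and 19.3% and Jak3 2.35% and 6.20%. Each of these shares kept the 2 groups apart (exact permutation p = 0.1, two-sided, the smallest possible).

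**Figure D4:**
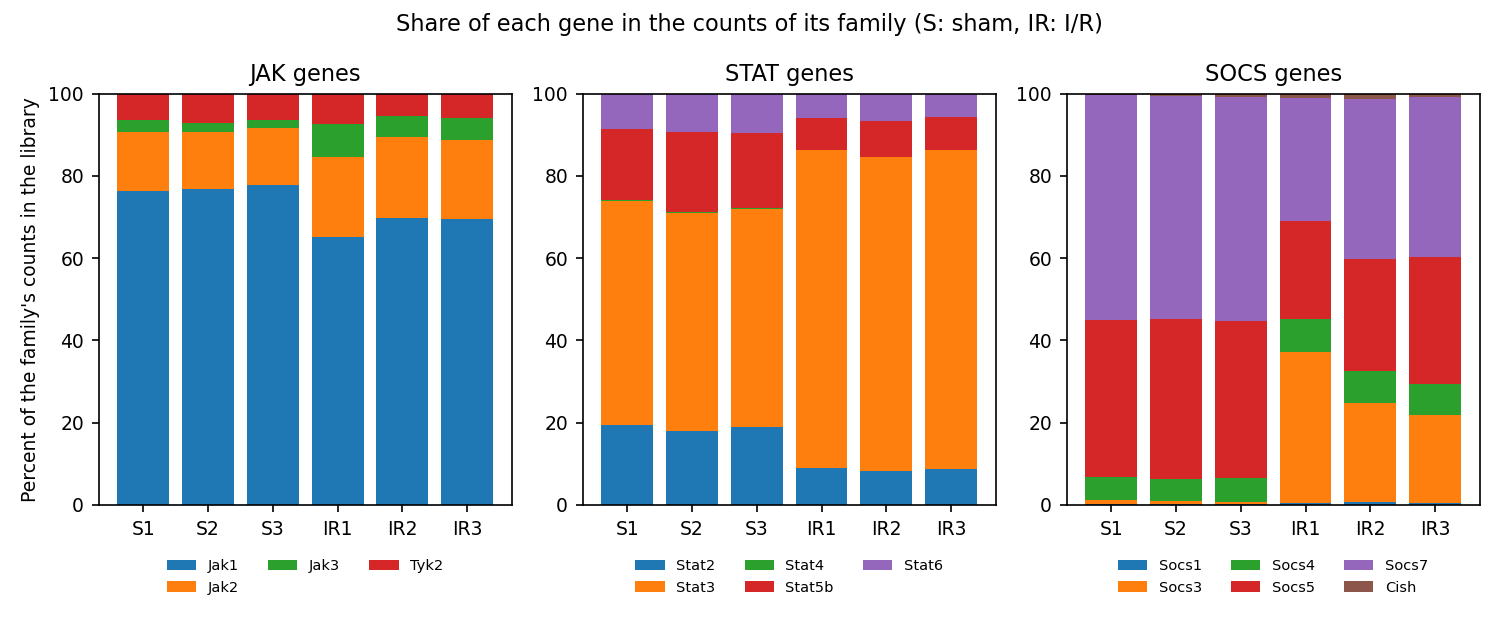
Stacked bars of the share of the read counts of each family (vertical axis, percent) taken by each gene in each sham (S) and I/R (IR) library. Stat3 took 53.0 to 54.5% of the counts of the STAT genes shown in sham and 76.5 to 77.6% in I/R. Socs3 took 0.490 to 1.09% of the counts of the SOCS genes shown in sham and 21.6 to 36.8% in I/R.

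Ratios between members within a library are free of scaling too. The ratio of Stat3 to Jak1 counts was 0.268, 0.293 and 0.274 in sham and 1.78, 1.17 and 1.05 in I/R. Each I/R library thus held more Stat3 than Jak1 counts and each sham library fewer. The ratio of Socs3 to Stat3 counts was 0.0633, 0.0467 and 0.0284 in sham and 0.441, 0.392 and 0.332 in I/R, 8.42 times higher on the mean. Per Il6st count, which stands for the gp130 chain that Socs3 acts on, Socs3 had 0.0402, 0.0310 and 0.0176 counts in sham and 0.625, 0.627 and 0.505 in I/R. Jak2 counts per Jak1 count were 0.182 in sham and 0.284 in I/R, and Jak3 counts per Jak1 count were 0.0306 and 0.0916. In each ratio the lowest I/R library exceeded the highest sham library (exact permutation p = 0.1, two-sided).

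Levels were compared between genes as CPM per kb of the gene length listed in the table. In sham, Jak1 was first (47.5), followed by Socs5 (32.6), Socs7 (29.0), Stat3 (15.4 ± 0.575, SD, n = 3) and Jak2 (8.44). Stat6 (2.95), Jak3 (1.77), Socs3 (1.17 ± 0.423), Socs1 (0.702) and Cish (0.471) were low, and the libraries of Socs1 and Cish overlapped. In I/R, Stat3 came first (64.9 ± 15.8), ahead of Socs3 (42.4 ± 15.97) and Jak1 (42.2). The Socs3 libraries (30.2 to 60.5) overlapped those of Stat3 (55.2 to 83.1) and spanned those of Jak1 (40.1 to 45.3). Within each I/R library Stat3 exceeded Socs3, with 83.1 against 60.5, 56.3 against 36.45 and 55.2 against 30.2 in replicates 1 to 3. Socs3 exceeded Jak1 in replicate 1 (60.5 against 40.1) and lay below it in replicates 2 (41.2) and 3 (45.3). Below them were Socs5 (24.0), Socs7 (19.7), Jak2 (11.7), Stat6 (5.83), Jak3 (4.68), Socs1 (1.62) and Cish (0.901). The libraries of Stat6 (4.62 to 7.28) and Jak3 (3.70 to 6.03) overlapped, whereas those of Socs1 (1.09 to 2.03) and Cish (0.643 to 1.06) did not. The deposited FPKM values rest on other lengths for many genes (for Jak1 1285 rather than 4906 bases). By FPKM the first 3 in I/R were Stat3 (226), Jak1 (176) and Socs3 (109), with Jak1 (166) first in sham. Cish lay above Socs1 by FPKM in I/R (2.09 against 1.77) and in sham (0.910 against 0.642), with overlapping libraries. Stat6 (19.6) lay above Jak2 (12.8) in I/R by FPKM. The order and separation of these lower genes thus depend on the length used.

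The remaining genes of the pathway were described from lists of ligands, receptors, further inhibitors and textbook STAT targets. Together with the other family genes above, and without the 10 genes named at the start, these lists held 100 genes, 95 of them in the table and 77 tested. Of the 77, 46 rose, 11 fell and 20 did not pass the test, with a median log2 fold change of 0.77. With scaling by library size only 53 rose and 5 fell, and on log2(FPKM + 0.1) 54 rose and 5 fell. A gene that is near 0 in sham enters the test only where it is high in I/R, so the counts and medians over tested genes are in part set by the filter. The lists were drawn up with earlier results of these data known, so their counts are a description beside the 21.8% and 19.9% of all genes.

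Among 21 ligand genes, 9 passed the filter on low counts and 6 of these rose. Of the 6, Il6, Csf3 and Osm had at most 5 counts in any sham library and passed the filter through their I/R counts, so no share or median is read from this list. Il11, a gp130 cytokine, had 12, 8 and 6 counts in sham and 6519, 2685 and 2143 in I/R (log2 fold change 8.58, SE 0.533, adjusted p = 0.000212 by edgeR). Csf3, the granulocyte growth factor, was at the floor in sham with 2, 1 and 0 counts and had 197, 63 and 22 in I/R, at least 27.1-fold higher, or at least 13.4-fold without I/R replicate 1. Il6 had 1, 0 and 0 counts in sham and 451, 239 and 224 in I/R. Csf2, Il13, Ifng, Lep and Prl were at or under 3 counts in all 6 libraries.

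Of 30 receptor genes, 24 were tested, with 14 higher and 4 lower. Osmr, the oncostatin M receptor chain that pairs with gp130, rose from 313, 233 and 193 counts to 6063, 3046 and 3357 (log2 fold change 3.92, SE 0.257, adjusted p = 0.000212 by edgeR). Il6st, which encodes gp130 itself, rose less, from 3853, 4136 and 3576 to 11232, 5933 and 6110 counts (0.85, SE 0.190, adjusted p = 0.0093). Il4ra, the IL-4 receptor chain through which STAT6 is activated, went from 172, 218 and 115 counts to 3889, 1838 and 1551 (3.69, SE 0.334, adjusted p = 0.000375), and Il2rg, the common gamma chain that JAK3 binds, from 27, 21 and 7 to 303, 136 and 105 (3.15, SE 0.507, adjusted p = 0.00255). Epor, the erythropoietin receptor, fell from 257, 274 and 254 counts to 74, 111 and 92 (-1.63, SE 0.228, adjusted p = 0.00155). Cntfr, the receptor of ciliary neurotrophic factor, fell from 2970, 3447 and 3050 counts to 2153, 1984 and 1865 (-0.80, SE 0.0872, adjusted p = 0.000693).

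Of 14 further inhibitors, all tested, 5 rose and 4 fell, beside 21.8% and 19.9% of all tested genes. Their median log2 fold change was 0.19. Usp18, which restrains interferon receptors, went from 28, 34 and 20 counts to 179, 131 and 149 (log2 fold change 2.35, SE 0.248). Ptprc (1.86, SE 0.252) and Ptpn6 (1.82, SE 0.288) are phosphatases of blood cells and microglia, and both rose. Ptprt (-0.70, SE 0.121) and Ptprd (-0.52, SE 0.115) are receptor phosphatases that act on STAT3 and are abundant in neurons, and both fell. The call of Ptprd (adjusted p = 0.00854 by edgeR) was lost with scaling by library size only (-0.27, adjusted p = 0.0711) and on both log2 FPKM scales.

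Of the STAT3 target genes, 13 of 14 tested rose and Bcl6 fell, with a median log2 fold change of 2.14. Hp, among the risers, had 4, 3 and 4 counts in sham and passed the filter through its I/R counts. The count and median of this list are thus in part set by the filter and are a description only. Timp1, an inhibitor of matrix proteases, had 21, 27 and 12 counts in sham and 3602, 2549 and 1853 in I/R (6.91, SE 0.291, adjusted p = 5.5e-05 by edgeR). Bcl3, a nuclear partner of NF-kappaB, went from 25, 30 and 7 counts to 831, 490 and 412 (4.66, SE 0.417). Lcn2, an acute phase protein, went from 318, 60 and 12 counts to 7644, 3099 and 2053 (4.88, SE 0.979, adjusted p = 0.00772), and its call was lost without I/R replicate 1 (4.25, adjusted p = 0.0706) and without a count filter (adjusted p = 0.0609). Without sham replicate 1, its highest sham library, the value was 6.70. The fall of Bcl6 was small (-0.28, adjusted p = 0.0373), and 14 of the 20 alternative settings lost it, among them leaving out any 1 library other than I/R replicate 3.

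Targets of STAT5 and STAT6 were listed in the same way. Of 6 STAT5 targets 4 rose, among them Osm (4.91, SE 0.575), Pim1 (2.82, SE 0.289) and Id1 (1.70, SE 0.259), with a list median of 1.21. Pim1 and Ccnd1, the fourth riser, are also in the STAT3 target list, and Osm is also a ligand, so Id1 is the riser not counted before. Without sham replicate 3 the value of Osm was 5.77. Of 7 STAT6 targets tested 6 rose. Arg1, the arginase of alternatively activated macrophages, had 9, 4 and 0 counts in sham and 706, 110 and 126 in I/R (5.95, SE 1.01), and Chil3 0, 7 and 0 against 340, 72 and 70 (5.85, SE 1.06). Without I/R replicate 1, the highest library of both, Arg1 was at 4.67 and Chil3 at 4.80, and without sham replicate 1 Arg1 was at 6.99. Chil3 is at 0 in the other sham libraries without sham replicate 2, so no fold is given there. Ccl24, an eosinophil chemokine, rose as well (2.12, SE 0.570, adjusted p = 0.0193 by edgeR), and its call was lost without sham replicate 2 (adjusted p = 0.0776) or 3 (0.0545), while without sham replicate 1 the value was 2.79. The median log2 fold change of the STAT6 targets was 2.10. Osm, Arg1 and Chil3 passed the filter through their I/R counts, and Retnla, also a listed STAT6 target, was too low to test. Counts and medians of the STAT5 and STAT6 lists are thus in part set by the filter, and no share is read from them.

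**Figure D5:**
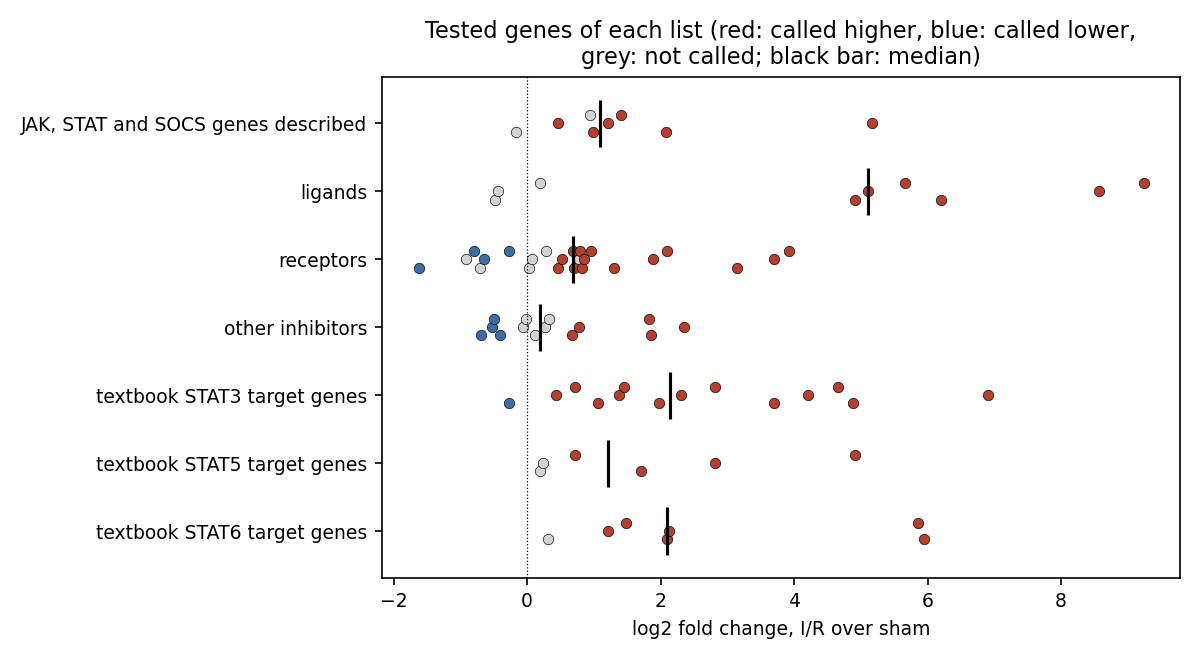
Log2 fold change, I/R over sham, of every tested gene of the 8 described here and of the ligand, receptor, inhibitor and STAT target lists. Each point is a gene, coloured by its call, and the bar marks the list median, which is 2.14 for STAT3 targets and 0.69 for receptors. The bars of the ligand and STAT target lists are in part set by the filter on low counts, and that of the ligand list is not read.

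Markers of several cell types moved together with these genes. Counts of calls in these lists stand beside the 21.8% of all tested genes called higher and the 19.9% called lower. The infiltrating myeloid list had 9 of 10 genes in the table and 6 tested, of which 4 rose, and its summed level was 0.901 to 2.43 CPM in sham and 9.33 to 34.2 CPM in I/R, the highest in I/R replicate 1. S100a8, a neutrophil and monocyte gene, rose from 20, 7 and 5 counts in sham to 671, 143 and 118 in I/R, and S100a9, Retnlg and Ccr2 rose too. In sham Retnlg had 8, 1 and 1 counts and Ccr2 8, 9 and 1, so both passed the filter through their I/R counts. The 4 of 6 is thus in part set by the filter, and no share is read from this list. The neutrophil granule gene Elane was at or under 3 counts in all 6 libraries, and Camp and Ngp were so in sham. The microglia list summed to 255 to 289 CPM in sham and 275 to 380 CPM in I/R, with 4 genes higher and 2 lower. The endothelial list summed to 276 to 278 CPM in sham and 369 to 557 CPM in I/R, with 6 genes higher and 2 lower. The astrocyte list summed to 4466 to 4824 CPM in sham and 4405 to 4686 CPM in I/R, but its genes moved in both directions, 2 higher and 4 lower. Gfap, the filament protein of reactive astrocytes, rose from a mean of 403 to 1998 CPM, and Slc1a2, the main glutamate transporter, fell from 3082 to 1588 CPM. The neuron list fell in 7 genes, from 12590 to 12840 CPM down to 2589 to 5847 CPM. T cell genes Cd3e, Cd3g and Cd8a were at or under 3 counts in all libraries. Cd3d had 0, 0 and 5 counts in sham and 2, 9 and 0 in I/R. Cd4 had 6, 3 and 4 counts in sham and 14, 9 and 5 in I/R, and neither passed the filter. The lymphocyte list summed to 0.523 to 0.794 CPM in sham and 0.525 to 1.18 CPM in I/R. The part of these cell types in the levels of Socs3, Stat3, Stat6 and Jak3 was not tested. Without I/R replicate 1 the log2 fold changes of these 4 genes were 4.82, 1.85, 0.79 and 1.17, all still called.

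For the gene of each family with the largest change, the tested genes most like it were ranked by Euclidean distance between log2 profiles. Each profile over the 6 libraries was first centred on its own sham mean. The distance thus compares changes and not levels, and near fold changes are built into the ranking. Nearest to Socs3 were Cd14 (distance 0.481), Ccr1 (0.556) and Cxcl10 (0.761), whose log2 fold changes were 5.13, 5.31 and 5.59. Nearest to Stat3 were Rai14 (0.158), Myd88 (0.190) and Col16a1 (0.199). Nearest to Jak3 were Irf5 (0.161), Gm694 (0.207) and Slc7a11 (0.222). This distance describes likeness in these libraries, which share their depth and scaling.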

How the data were processed

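Hippocampal RNA of 3 I/R and 3 sham libraries was sequenced by the study. Per the study's methods the authors aligned reads with TopHat2 and counted them per gene with HTSeq, and the labels' processing notes name Bowtie 0.12.2 and the build mm8. The deposited table instead carries gene identifiers and coordinates of the BALB/cJ strain annotation, and no coordinate of it was set against GRCm38.p6. The deposited count columns are raw read counts per gene, and the deposited FPKM columns were made by the authors from them. In the table, 4 split lines were rejoined, and genes without a name (4.24 to 4.74% of counts) were kept in the library totals.

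The genes and lists were chosen with earlier results of these data known. The test on the counts was that of edgeR 4.0.16, run under R 4.3.3 (filterByExpr, TMM factors, robust quasi-likelihood F-test, Benjamini-Hochberg adjustment over all tested genes). A standard error is the log2 fold change divided by the square root of F. Results of 1 family gene and 1 list of targets are not reported here. Named were the 8 genes, the other tested family genes and, per list, the 3 with the largest rise and the 2 with the largest fall among called genes, and Il6st, which was chosen after its values were seen. Alternatives were DESeq2 1.42.0, limma 3.58.1 (voom, and log2 FPKM with pseudocount 1 or 0.1), other filters, thresholds and scalings, a replicate block, a choroid plexus covariate and leaving out libraries. The edgeR steps were tested on simulated counts. Sequences came from RefSeq.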

Additional observations from a re-analysis of the deposited data

How the results depend on the processing

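Over 20 alternatives, the number of genes called (7756) stayed between 5255 and 9047, except for 2760 with a fold change above 2, and leaving out 1 library gave 5330 to 7976. Calls among the 8 genes ranged from 4 to 7, and from 5 to 6 with 1 library left out. Of 57 pathway genes called, 34 passed a fold change above 2 and 44 to 55 were called with 1 library left out. At a fold change above 2, Stat6 (0.98) and Jak2 (0.46) were no longer called. The log2 fold change of Socs1 was 1.36 without the libraries lowest in choroid plexus RNA (adjusted p = 0.0571), and 0.99 to 1.45 with 1 library left out. Cish was called with DESeq2 (0.93), library size only (1.203), log2(FPKM + 1) (0.70), log2(FPKM + 0.1) (1.17), the unadjusted p (0.94) and the choroid plexus covariate (1.14). The signs of Jak1 (0.0814, 0.0795 and 0.0799) and Tyk2 (0.17, 0.12 and 0.15) turned with library size only, log2(FPKM + 1) and log2(FPKM + 0.1). The cause was not tested. Library size only moved the median of all genes to 0.28, with 6334 genes higher and 2027 lower.

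Deviations from the group mean had correlations of -0.0967, 0.0556 and -0.184 between same-numbered libraries. The correlation was 0.267 between I/R replicate 3 and sham replicate 1, the libraries lowest in choroid plexus RNA. These values are affected by such differences and cannot decide whether the replicate numbers pair the libraries. With the replicate block 6332 genes, 5 of the 8 genes and 52 pathway genes were called, and Socs1 (1.195, adjusted p = 0.0696) lost its call. At this depth, genes at or under 3 counts in every library could not be compared.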
